A study of Homo sapiens with 2 samples.

Results

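Peaks of the chromatin protein JARID2 inside genes, in introns that the peak annotation numbers 2 or higher, are described here. A peak was a member when its annotation was an intron other than intron 1 and the transcript whose start lay nearest was shorter than 500 kb. This held for 19336 of the 67071 listed peaks (28.8%, exact 95% interval 28.5 to 29.2) and for 77.6% of the 24930 intron peaks. The cells were untreated MDA-MB-231, a line from a human triple-negative breast tumour. Their chromatin was precipitated with a polyclonal antibody to JARID2 and sequenced (ChIP-seq). The labels name 1 ChIP library and 1 library of input DNA made without antibody, and the values used here are those of the ChIP library's peak list. With 1 library there is no replicate check and no test, and the tag count, fold enrichment and false discovery rate (FDR) of every peak were taken as the authors deposited them. Intervals are exact 95% binomial intervals (Clopper-Pearson) and cover counting error only. Coordinates are those of the deposited list, on hg19.

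JARID2 is an accessory subunit of Polycomb repressive complex 2 (PRC2), which methylates lysine 27 of histone H3 through the catalytic subunit EZH2 or EZH1. JARID2 helps to recruit PRC2 and to stimulate its activity, and in many cell types the complex is concentrated at CpG-rich promoters of developmental genes. Introns are spliced out of the primary transcript, can hold enhancers, alternative promoters, small RNA genes and retrocopied pseudogenes, and the first intron is often the longest. The annotation gives each peak 2 gene names, that of the intron it lies in and that of the nearest transcription start site (TSS), and these need not be the same gene.

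The intron numbers in the list followed the genome coordinate and not the direction of transcription. Neighbouring peaks in different introns of 1 transcript were compared along the chromosome. The intron number rose in all 2746 such pairs in genes on the plus strand and also in all 2658 pairs in genes on the minus strand. On the plus strand 24.8% of intron peaks were in the intron numbered 1 and 14.3% in the highest-numbered intron, while on the minus strand these shares were 8.58% and 29.2% (transcripts with more than 1 intron). Counted from the TSS, 2943 of the 9404 members in minus-strand genes (31.3%) were in the first intron, which is 15.2% of all members. In the other direction, 909 of the 5017 peaks left out as intron 1 lay in a later intron when counted from the TSS. The strand of the intron's gene was listed for 17870 members (92.4%). The members are therefore called peaks of later-numbered introns, and where a single intron of a minus-strand gene is named, its count from the TSS is given beside the printed number.

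**Figure D1:**
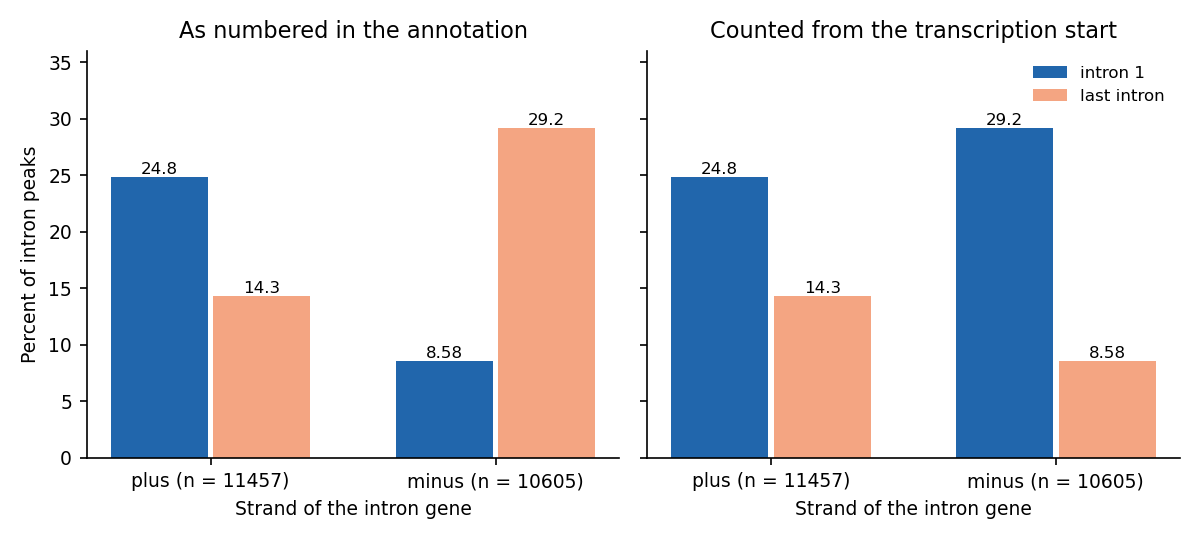
Share of intron peaks (percent, bars from 0) in the first and the last intron of transcripts with more than 1 intron, by the strand of the gene, as numbered in the list (left) and counted from the transcription start (right). As numbered, minus-strand genes have 29.2% of their peaks in the last intron and 8.58% in intron 1. Counted from the start, these values change places and both strands have more peaks in the first intron than in the last.

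Most of the members were weak peaks. Fold enrichment over the caller's background ranged from 2.8 to 18.95 with a median of 5.95 (interquartile range 5.26 to 6.76), and tags per peak ranged from 9 to 194 with a median of 12 (10 to 16). The median width was 503 bp (439 to 615). These medians lay beside 5.95, 12 tags and 510 bp in the whole list. Under 20 tags were counted in 17110 members (88.5%), and the whole list had the same quartiles of tags, 10 and 16. The median FDR was 44.7%, and 14060 members (72.7%) had an FDR above 40%, against 70.3% of the whole list. A fold enrichment of exactly 6.18 was listed for 2145 members (11.1%) and for 7555 peaks of the whole list (11.3%).

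Strong peaks were rarer among the members than in the list as a whole. There were 63 members at an FDR of at most 5% (0.326%, interval 0.25 to 0.417), against 1.24% of the whole list and 1.62% of all other peaks (1.5 to 1.73). A fold enrichment of at least 10 was reached by 86 members (0.445%, 0.356 to 0.549), against 1.04% of the list. An FDR of 0 was listed for 9 members (0.0465%, 0.0213 to 0.0883), against 0.377% of the list. A −log10 p of at least 5 was reached by 10.3% of the members and by 12.9% of the list. By class, the share at an FDR of at most 5% was 4.29% for promoter peaks (within 3 kb of a TSS, 3.95 to 4.64) and 1.21% for exon peaks (0.716 to 1.9), both above the members' interval. Distal intergenic peaks had 0.468% (0.387 to 0.562), whose interval overlaps that of the members.

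The shares of strong peaks in first and later introns had overlapping intervals, however the introns were counted. Peaks of the intron numbered 1 near transcripts under the same length limit had 18 of 5017 at an FDR of at most 5% (0.359%, 0.213 to 0.566). With introns counted from the TSS, first introns had 21 of 6487 (0.324%, 0.2 to 0.494) and later introns 50 of 15836 (0.316%, 0.234 to 0.416). Within the members, those in the first intron from the TSS had 9 of 2943 (0.306%, 0.14 to 0.58) and those in a later intron 50 of 14927 (0.335%, 0.249 to 0.441). Of the intron peaks near transcripts of 500 kb or longer, 0 of 577 had an FDR of at most 5%, which allows a share of up to 0.637%.

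**Figure D2:**
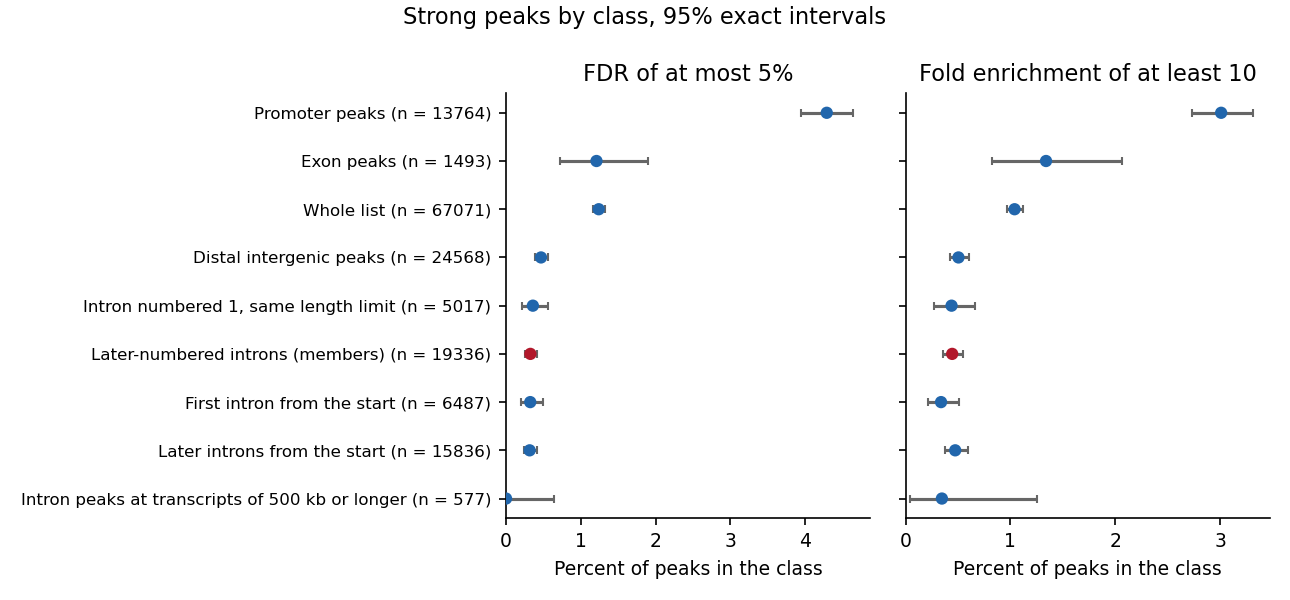
Percent of peaks at an FDR of at most 5% (left) and at a fold enrichment of at least 10 (right) in each class of the list, points with exact 95% binomial intervals. The members (red) sit at 0.326% and 0.445%, with overlapping intervals for all intron classes, and promoter peaks sit at 4.29% and 3.01%.

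Position within the transcript was compared by intron number and by distance. Counted from the TSS, the members of listed strand lay at a median of intron 3 (interquartile range 2 to 7), where the printed numbers had a median of 5 (3 to 11). Transcripts holding a member had a median of 10 introns (5 to 19) and at most 149. Median fold enrichment was 5.90 in the first intron from the TSS, 5.94 in the second, 5.99 in the third and 5.95 beyond the twentieth. The share at an FDR of at most 5% was highest in the third intron, at 0.387% (0.186 to 0.711), and lowest in introns 11 to 20, at 0.21% (0.0573 to 0.537), with overlapping intervals. The highest printed intron number was 143 of 145 in SYNE1, a gene of a giant spectrin-repeat protein of the nuclear envelope. This is intron 3 from the TSS, and the peak had 10 tags, a fold enrichment of 5.3 and an FDR of 47.8%.

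The smallest distance from the nearest TSS was 3001 bp, the median 16759.5 bp (8040.75 to 36664) and the largest 452311 bp. Median fold enrichment was 5.79 at 3 to 5 kb and 6.18 beyond 100 kb, and the median number of tags was 12 in every distance class. The share at an FDR of at most 5% was highest at 10 to 20 kb (0.458%, 0.284 to 0.7) and lowest beyond 100 kb, where 1 of 1011 peaks reached it (0.0989%, 0.0025 to 0.55). Most of the strong members were wide, but wide members also held more tags. With the members cut into 5 groups of about equal size by width, the widest group (653 to 2359 bp) held 51 of the 63 members at an FDR of at most 5% (1.33% of that group, 0.988 to 1.74). The other 4 groups, from the narrowest up, held 2, 2, 1 and 7. The widest group had a median of 20 tags, against 10 in the narrowest. Its median fold enrichment was the lowest of the 5 groups, at 5.54, against 6.18 in the narrowest. Whether width bears on the FDR apart from the tag count was not tested.

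The 63 members at an FDR of at most 5% lay in 62 genes. Their fold enrichment ran from 4.96 to 18.95 with a median of 9.56, they held 20 to 96 tags with a median of 35, and their median width was 1002 bp, against 12 tags and 502 bp for the remaining 19273. Of these 63 peaks 22 also had a fold enrichment of at least 10 and 41 did not. A further 64 members passed a fold enrichment of 10 without an FDR of at most 5%, with a median of 16 tags and 573 bp, between those of the remaining members and those of the 63. Counted from the TSS, 9 of the 63 were in the first intron, 50 in a later one and 4 in genes of unlisted strand. The largest FDR inside the limit was 4.61% and the smallest outside it 5.08%.

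**Figure D3:**
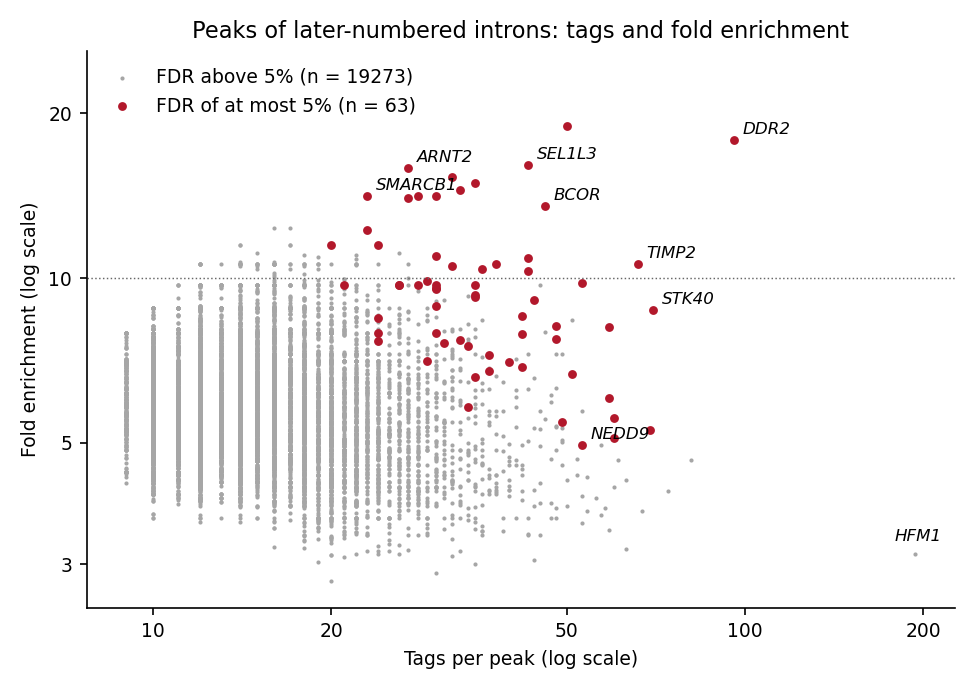
Tags per peak (x axis, log scale) against fold enrichment (y axis, log scale) for the 19336 members, with those at an FDR of at most 5% in red and the dotted line at a fold enrichment of 10. The red points lie at 20 tags or more, with DDR2 at 96 tags and 17.85 in the upper right, and the HFM1 peak of 194 tags lies at 3.14.

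Among the 9 members listed with an FDR of 0, the one with most tags was in DDR2, a receptor tyrosine kinase that binds fibrillar collagen. This peak (chr1:162659862-162661292, intron 2 of 4, 57603 bp from the nearest TSS) held 96 tags at a fold enrichment of 17.85. The other 6 members in DDR2 held 10 to 21 tags and had fold enrichments of 5.09 to 7.06, so 1 site stood apart within the gene. The highest fold enrichment of all members, 18.95 with 50 tags, was in TSNARE1, a gene of a t-SNARE domain protein (chr8:143316216-143317627, printed intron 2 of 13, intron 12 from the TSS). The nearest transcript there was the 280 bp CTD-3135A9.3, so the list names this peak for another gene than the intron's.

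SEL1L3 held a peak of 43 tags and a fold enrichment of 16.08 in its second intron from the TSS (chr4:25845006-25845922, printed as 22 of 23). In CASS4, a Cas-family adaptor of focal adhesions, a peak of 32 tags had a fold enrichment of 15.32 (chr20:55014707-55015266, intron 3 of 6). The nearest transcript there was the 156 bp RPL39P, a ribosomal protein pseudogene. The gene with the identifier ENSG00000273259 had 35 tags and 14.93 (chr14:95066778-95067533, intron 3 of 7). Of these 3 peaks, the one in CASS4 carries another gene's name in the list.

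BCOR encodes a corepressor that is a subunit of a variant Polycomb repressive complex 1. Its strongest member had 46 tags and a fold enrichment of 13.51 (chrX:39966224-39967135), and a second, at chrX:40017172-40018054, had 24 tags, 9.7 and an FDR of 15.3%. All 5 members in BCOR were printed as intron 13 of 13 and lay in the first intron from the TSS. TIMP2, an inhibitor of matrix metalloproteinases, also had its peak in the first intron from the TSS (chr17:76878765-76880300, printed as 4 of 4), with 66 tags and 10.59.

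The remaining peaks with an FDR of 0 were below a fold enrichment of 10 and are named after their values were seen. STK40, a kinase-like gene, had 70 tags and 8.73 over 1764 bp (chr1:36815979-36817742), and ENSG00000243144, which has no symbol in the list, had 42 tags and 8.51 (chr7:91100397-91101558). Counted from the TSS, 2 of the 9 peaks with an FDR of 0 were in a first intron, 6 in a later intron and 1 in a gene of unlisted strand.

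Other members of high fold enrichment fell in genes of varied function. ARNT2, a basic helix-loop-helix PAS transcription factor, had 27 tags, 15.89 and an FDR of 0.33% (chr15:80781337-80781935, intron 5 of 18). AGPAT4, an acyltransferase of phospholipid synthesis, had 33 tags, 14.48 and 0.28% (chr6:161589258-161590053, printed intron 6 of 7, intron 2 from the TSS). SMARCB1, a core subunit of the SWI/SNF chromatin remodeller, had 23 tags, 14.13 and 2.91% (chr22:24153680-24154290, intron 5 of 8), and this was its only member.

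The same fold enrichment, 14.13, was listed in C15orf27 (30 tags, FDR 0.31%, chr15:76469843-76470612) and in the cholesterol exporter gene ABCG1 (28 tags, 0.3%, chr21:43647695-43648373). CCDC171 followed at 13.99 with 27 tags and 0.32% (chr9:16030530-16030947). The peaks in C15orf27 and ABCG1 were named in the list for RP11-593F23.1 and RNA5SP492.

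IGF1, a growth factor gene, and PARN, which encodes a poly(A) ribonuclease, both reached 12.36. Their peaks held 16 and 17 tags, with FDRs of 10.7% (chr12:102855185-102855591) and 19.1% (chr16:14569445-14570002), above the 5% limit. The noncoding RP11-400N13.1 completed the 15 highest with 23 tags, 12.26 and 4.3% (chr1:222538751-222539363).

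The next members at an FDR of at most 5%, in order of fold enrichment, began with MEGF6 and the transglutaminase gene TGM6, both at 11.48 with 24 and 20 tags. SHANK1, a postsynaptic scaffold gene, had 30 tags and 10.97. ARHGAP35, which encodes a GTPase-activating protein, had 38 tags, a fold enrichment of 10.6 and an FDR of 0.29%. TBC1D8, a gene of a TBC-domain protein, had 36 tags and 10.39 in its first intron from the TSS (printed as 19 of 19). SH3PXD2A, which encodes the invadopodium scaffold TKS5, had 43 tags, 10.28 and an FDR of 0.47%.

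Below a fold enrichment of 10, SMAD6, an inhibitory SMAD of bone morphogenetic protein signalling, had 29 tags, 9.86 and an FDR of 3.25%. TRAF1, an adaptor of tumour necrosis factor receptors, had 53 tags, 9.79 and 0.35%, and EFCC1 had 30 tags and 9.73. At 9.71 stood ZDHHC14, a palmitoyltransferase gene, with 35 tags, SORCS3, a sortilin-family receptor gene, with 28, and PRKCE, a protein kinase C gene, with 26. The remaining 4 of the 30 peaks of highest fold enrichment within the FDR limit were named in the list for RP11-674I16.1, SNORD18, RN7SL710P and RP11-5K23.5, with fold enrichments from 9.71 to 10.88.

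High tag numbers did not always go with high fold enrichment. The most tags of any member, 194, were in a 493 bp peak of HFM1, a meiotic DNA helicase gene (chr1:91852737-91853229), at a fold enrichment of 3.14 and an FDR of 22.1%. It was the only member with at least 100 tags and was chosen after its value was seen. The 5 widest members, 2146 to 2359 bp, had fold enrichments of 3.47 to 4.65 and 59 to 81 tags. They lay in UQCC1 (2359 bp), a gene of complex III assembly, PRIM2 (2293 bp), a DNA primase subunit, PRKAG2 (2217 bp), a regulatory subunit of AMP-activated kinase, KAZN (2201 bp) and RP5-1120P11.1 (2146 bp). None of the 5 had an FDR of at most 5%, the lowest being 8.44% in KAZN.

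The gene name that the list gives to a member was often not that of the intron's gene. The nearest transcript belonged to the gene of the intron for 10982 members (56.8%, 56.1 to 57.5) and to another gene for 8354 (43.2%). The nearest transcripts of other genes were short, with a median of 823 bp (177.25 to 4768), and 3422 of them (41%) were under 500 bp, against a median of 42827 bp when the gene was the same. Of the 8354, 1982 (23.7%) were named for a pseudogene, 1076 (12.9%) for a protein-coding gene, 409 (4.9%) for a long noncoding RNA and 316 (3.78%) for a miRNA. Another 4463 (53.4%) had a symbol with no exact match in RefSeq. Synonyms were not used for these counts, so each named class can be too low. The symbol Y_RNA, shared by 100 gene identifiers, named 173 peaks, and snoU13, shared by 54, named 89. Where the strand of the intron's gene was listed, 4151 of 6888 such nearest transcripts (60.3%) lay on the opposite strand.

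The share of strong peaks was set beside the naming, for members named for the gene of their intron and for those named otherwise. Of the former, 0.401% had an FDR of at most 5% (0.291 to 0.537), against 0.227% (0.137 to 0.355) of the latter, with overlapping intervals. Among the 63 strong members, 44 (69.8%, 57 to 80.8) were named for the gene of the intron, against 56.8% (56 to 57.5) of the rest. The length limit acted on the nearest transcript and not on the intron's gene. Thus 2926 members (15.1%) lay in 207 genes whose longest listed transcript was 500 kb or longer. Just inside the limit were a peak in DIAPH3, a formin gene (497183 bp, fold enrichment 4.18), and a pair of peaks near a transcript of 496979 bp (4.81 and 5.36). Just outside it were 3 peaks in ANKS1B (501036 bp, 7.39, 6.18 and 4.37).

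The members were spread over 6377 genes by the intron they lay in, 4283 of them protein-coding by an exact RefSeq symbol. With synonyms also matched, as in the gene lists below, there were 4559 protein-coding genes. A single member was held by 2900 genes (45.5%), and 341 genes with at least 10 members held 5338 of them (27.6%). By the nearest transcript there were 9168 genes with a mean of 2.11 members, against 3.03 by the intron. Across the 5601 genes with a listed transcript length, the number of members rose with the longest listed transcript (Spearman correlation 0.583). This is a description across genes of 1 library, which are not replicates. The longest listed transcript had a median of 34.9 kb in genes with 1 member and 434 kb in genes with at least 10. Lengths came from the peak list itself, so a gene with more peaks can show more of its transcripts. How far this adds to the correlation was not tested. Of the members in genes with at least 10, 0.225% (0.116 to 0.392) had an FDR of at most 5%, against 0.31% (0.142 to 0.588) in genes with 1, with overlapping intervals.

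The 8 genes with most members held 37 to 68 each. CNTNAP2, a neurexin-family gene, held 68 members with fold enrichments from 3.88 to 8.83 and a median of 5.62, and 49 of the 68 were named for another gene. EYS, a retinal photoreceptor gene, held 50 (3.44 to 7.42, median 5.12), and DLG2, a postsynaptic scaffold gene, 48 (4.24 to 8.99, median 5.38). One member each in CNTNAP2 (5.82, FDR 4.4%) and EYS (6.68, FDR 1.01%) passed an FDR of 5%, and none in the other 6 genes.

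TBC1D5, a regulator of endosomal Rab7, held 44 members (median 6.17). Of these 31 were in a first intron from the TSS, 26 of them in 1 intron, printed as 8 of 8, across 621 kb (chr3:17814186-18435044). LRP1B, a lipoprotein receptor-related gene, MACROD2, a gene of an ADP-ribose-binding macrodomain protein, and MAGI2, a scaffold gene, held 38 each with a median of 6.18. PTPRT, a receptor tyrosine phosphatase gene, held 37 with a median of 5.72. The medians of the 8 genes, from 5.12 to 6.18, lay on either side of the 5.95 of all members.

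**Figure D4:**
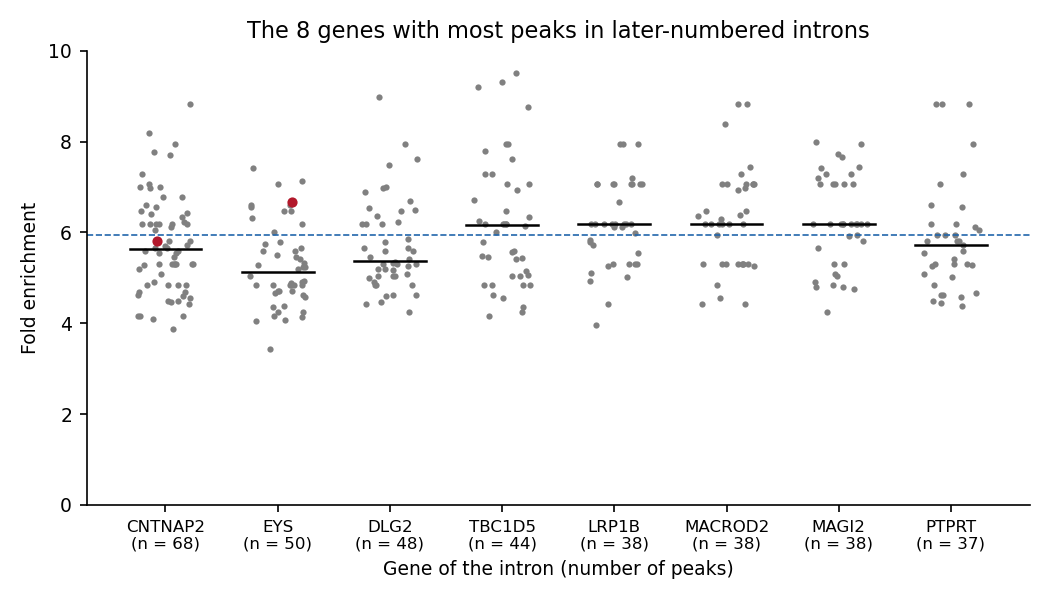
Fold enrichment of every member (points) in the 8 genes with most members, with the gene's median (black line), members at an FDR of at most 5% in red and the median of all members as the dashed line at 5.95. Medians run from 5.12 in EYS to 6.18, and the red points are 1 in CNTNAP2 and 1 in EYS.

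Single introns rarely held many members. A member was found in 11744 introns, of which 8079 (68.8%) held 1 and 54 held at least 10. The median gap between neighbouring members was 42737 bp, and 634 gaps were under 1 kb. After the TBC1D5 intron, the fullest was the first intron from the TSS of KCNIP4 (printed as 7 of 7), a gene of a potassium channel interacting protein, with 17 members across 735 kb and fold enrichments from 3.92 to 9.71. By chromosome, members made up 17% of the peaks of chromosome 19 (15.2 to 19) and 34% of those of chromosome 7 (32.6 to 35.5), the lowest and highest shares apart from chromosome Y, with 0 of 8 peaks.

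Promoter peaks of the genes with members were counted next. A promoter peak was listed for 2607 of the 6377 genes (40.9%, 39.7 to 42.1) and for 29 of the 62 genes with a member at an FDR of at most 5% (46.8%, 34 to 59.9). A promoter peak at an FDR of at most 5% was found in 144 of all 6377 (2.26%, 1.91 to 2.65) and in 1 of the 62 (1.61%, 0.0408 to 8.66). That gene was SH3PXD2A, whose promoter peak had 73 tags, a fold enrichment of 5.46 and an FDR of 1.07%. The interval for the 62 genes contains the share of all 6377. The share among genes without a member is not given here, so these shares cannot be read as high or low for genes with members.

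Members in 11 lists of genes were counted, 585 genes in all, and 10 of the lists are described. As background, 22.8% of the 20033 protein-coding genes had a member by the intron and also 22.8% by the nearest transcript, and 0.26% had a member at an FDR of at most 5%. The background includes short genes and genes with fewer introns than a member needs, and the part of gene length in the shares below was not tested. By the nearest transcript 317 of the 585 genes (54.2%) had a member. The genes named in each list are those of highest fold enrichment by the nearest transcript.

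Among the lists tied to Polycomb and chromatin, 16 of 39 PRC2 and PRC1 subunits had a member by the intron (41%, 25.6 to 57.9), with 36 peaks at a median fold enrichment of 5.57 against 5.94 over all protein-coding genes. BCOR was the only one with a member at an FDR of at most 5%. Next by the nearest transcript came RBBP4, a histone-binding PRC2 subunit (7.06, FDR 38.3%), SCMH1, a PRC1-associated protein (6.61, 31.4%), and KDM2B, the CpG-binding subunit of variant PRC1 (6.61, 43.1%). For 3 of the 16 genes, the only members lay in a first intron from the TSS.

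JARID2 itself held 5 members, with 12 to 20 tags, fold enrichments of 4.85 to 6.55 and FDRs of 30.5% or more. EZH2 held 1, of 49 tags and 5.32 at an FDR of 7.5% (chr7:148538388-148539848, printed as intron 16 of 18, intron 3 from the TSS), which the list names for RNU7-20P. SUZ12, a PRC2 core subunit, held members of 5.66 and 5.3 at FDRs of 37.1% and 44.6%. None of these PRC2 genes had a member at an FDR of at most 5%.

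Chromatin remodellers had a member in 20 of 36 genes (55.6%, 38.1 to 72.1). SMARCB1 led them by the nearest transcript, before ARID1B (8.56), BAZ2B (8.08) and SMARCA2 (7.95), all 3 with an FDR above 30%. Histone methyltransferases and demethylases had a member in 22 of 49 (44.9%, 30.7 to 59.8) and none at an FDR of at most 5%. Their highest by the nearest transcript were SETD2, the histone H3 lysine 36 methyltransferase, and KDM1A, the lysine demethylase LSD1, both at 8.83. EHMT1, a histone H3 lysine 9 methyltransferase, followed at 7.7 and SMYD3 at 7.06. The KDM1A member held 12 tags at an FDR of 37.8%. The list gives the same gene 8 promoter peaks, and the strongest of these held 253 tags at a fold enrichment of 84.67.

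Ion channels and glutamate receptors had the highest share of the 11 lists, 65 of 75 genes (86.7%, 76.8 to 93.4) with 434 peaks and a median fold enrichment of 5.99. By the nearest transcript, the highest were KCNN3, TRPM7 and SCN4A at 9.71 and CACNA1D at 8.83. By the intron, 1 of the 434 peaks reached a fold enrichment of at least 10. The 1 member at an FDR of at most 5% was in RYR2, the cardiac ryanodine receptor gene (30 tags, 7.95, FDR 4.28%, intron 87 of 104). Kinesins, dyneins and myosins had 45 of 65 (69.2%, 56.6 to 80.1). Ranked by the nearest transcript, the first was a peak near MYH10 at 11.11, with 15 tags and an FDR of 41.6%. It lay in an intron of ENSG00000166579. DNAH3 followed at 10.6, DNAH9 at 9.53 and DNAH14 at 9.46.

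Integrins, laminins and cadherins had 32 of 50 (64%, 49.2 to 77.1). CDH1, the gene of epithelial E-cadherin, had the highest by the nearest transcript at 9.71, with 13 tags and an FDR of 26.3%. The cadherin genes CDH12 (9), CDH22 (8.83) and CDH18 (7.44) followed. TGF-beta, BMP, WNT and Hippo genes had 39 of 71 (54.9%, 42.7 to 66.8), and SMAD6 was the only one with a member at an FDR of at most 5%. The SMAD6 peak, at 9.86, is named in the list for another gene. By the nearest transcript, the receptor genes BMPR1B (8.83) and LRP6 (8.56, 29 tags, FDR 7.54%) were first, before SMURF2 (8.3) and SMAD9 (7.95). Receptor tyrosine kinases had 23 of 51 (45.1%, 31.1 to 59.7). DDR2 was first by the nearest transcript, then the ephrin receptors EPHA3 and EPHA6 at 9.71 and the insulin receptor INSR at 8.

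Tumour suppressor genes had 17 of 38 (44.7%, 28.6 to 61.7), and none had a member at an FDR of at most 5%. Ranked by the nearest transcript, FHIT (8.83), RUNX1 (7.8) and MAGI2 (7.73) were first. RUNX1, a haematopoietic transcription factor gene, held 33 members by the intron, with fold enrichments from 3.93 to 8.83 and a lowest FDR of 5.48%. Of these, 21 were named for another gene, among them the peak of 8.83, named for MIR802. The 33 members ran from chr21:36197376 to chr21:37305344. In 1 intron, printed as 4 of 12 (intron 9 from the TSS), lay 15 of them, with the peak of 7.8 included. DNA damage response genes had the lowest share, 24 of 63 (38.1%, 26.1 to 51.2), with BLM, a helicase gene, and FANCL, a Fanconi anaemia gene, at 8.83. The shares of the 10 lists described ran from 38.1% to 86.7%, against 22.8% of all protein-coding genes. That background was not matched for gene length, and the lists were chosen with earlier results of these data known. These shares therefore cannot be read as high or low for the lists. Median fold enrichments lay between 5.57 and 6.18. Without members in a first intron from the TSS, the shares ran from 33.3% of the PRC2 and PRC1 subunits to 78.7% of the ion channels, and the share of all protein-coding genes was 20.3%.

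**Figure D5:**
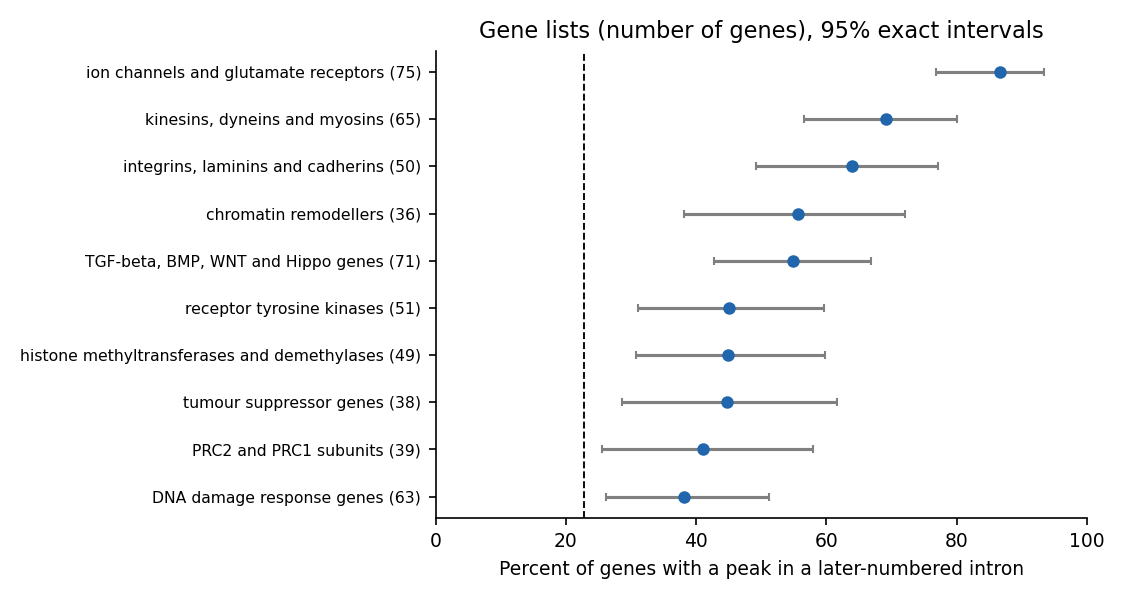
Percent of the genes of each of the 10 lists with at least 1 member by the intron (points, exact 95% intervals, number of genes in brackets), and the 22.8% of all protein-coding genes as the dashed line. Shares run from 38.1% of the DNA damage response genes to 86.7% of the ion channels and glutamate receptors.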

How the data were processed

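The deposited annotated peak list of 1 ChIP library was used. No value of the input library was used. The submitters' processing notes name bcl2fastq, Bowtie 0.12.8, MACS, MACS2, ChIPseeker and hg19, with roles, thresholds, duplicate filter and use of the input not given in the sources used here. Per the file headers, the authors give each peak a raw tag count, a fold enrichment (a ratio to the caller's background) and an FDR in percent. The header of the deposited score was unreadable, and its values, from 30 upward, were taken to be −log10 p times 10, as MACS writes them. The depth of the library is unknown. PCR copies are not independent molecules.

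Peaks were parsed with pandas 2.3.3 and scipy 1.17.1 in Python 3.11.15, and parsing was tested on simulated data. The gene of an intron was read from the annotation. Its symbol and strand came from a peak named for that gene, which can be the member itself. The strand was listed for all 10982 members named for the intron's gene and for 6888 of the 8354 others. Every member of unlisted strand was therefore named for another gene. Symbols were matched to RefSeq (GRCh38.p14, names only), and 11308 of 26257 matched a protein-coding gene. Date-like symbols, 11 in 39 members, matched none.

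The members, the lists and the rule for named genes were chosen with earlier results of these data known. Named were the 15 largest fold enrichments, up to 30 peaks at an FDR of at most 5%, the 8 genes with most members, 4 genes per list by the nearest transcript, the 5 widest peaks and 3 peaks on each side of the length limit. A gene list and some genes that this rule picks are not reported here. Alternatives were other length and FDR limits, merging of peaks under 1 kb apart, a −log10 p of at least 5, the gene of the intron, chromosomes 1 to 22 and X, and the removal of JARID2, EZH2 and KDM1A. Counting introns from the TSS was added after the data were examined. Peak sequences on hg19 were not used here.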

Additional observations from a re-analysis of the deposited data

How the results depend on the processing

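Of 106 alternatives 77 stayed within the limits set for them and 29 moved, 11 of those being single gene lists at a −log10 p of at least 5. The limits were not equally wide. Members per gene of 3.03 by the intron, against 2.11, stayed within them, while a share of the list of 27.9%, against 28.8%, did not. Some alternatives could hardly move. No member lay on chromosome Y, and the removal of JARID2, EZH2 and KDM1A took out few peaks. The count of 77 is therefore no measure of stability. At a −log10 p of at least 5 the share of members at an FDR of at most 5% moved from 0.326% to 3.15%, the share at a fold enrichment of at least 10 from 0.445% to 3.95%, the medians to a fold enrichment of 7.06, 19 tags and 667 bp, members per gene from 2.11 to 1.15 and list genes with a member from 317 to 87. All 63 members at an FDR of at most 5% had a −log10 p of 9.3 or more. The cut at a −log10 p of 5 therefore kept all 63 and left 2000 members, which raised the share. The shares of the whole list at that cut are not given here. FDR limits of 10% and 1% gave 0.729% and 0.124% of the members, and the limit of 10% gave 1.96% of the whole list. The members' share of the list, 28.8%, became 23.2% at a −log10 p of at least 5, 26.7% with a length limit of 200 kb, 29.5% with none, 27.9% after merging peaks under 1 kb apart and 16.4% when the nearest transcript had to be that of the intron. The share named for the gene of the intron, 56.8%, became 53.8% at 200 kb and 57.7% with no limit. With introns counted from the TSS, an alternative chosen after seeing the data, 17302 peaks qualified, 16393 of them also members, the share of the list was 25.8% and the share named for the intron's gene 55.1%. In that count 0.312% had an FDR of at most 5% and 289 list genes had a member. No paired analysis was possible because there is 1 ChIP library. Most members rest on few tags, so single weak peaks are uncertain, and no replicate bears on any of them.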
